A study of Bos taurus with 8 samples.

Results

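The IL-1 family cytokines described here are IL1A, IL1B, IL1RN and IL18, 4 of the 21861 genes listed in the scRNA-seq tables, chosen by gene name. Each name matched 1 gene: ENSBTAG00000010349 (IL1A), ENSBTAG00000001321 (IL1B), ENSBTAG00000019665 (IL1RN) and ENSBTAG00000000277 (IL18). The same identifiers were looked up in the scATAC-seq tables. The blood came from 4 female lactating Holstein cattle, 2 years old, and was pooled and then divided. A portion stayed without LPS (no LPS), and the others met 2 µg/ml LPS at 37 °C for 2, 4 or 8 h before mononuclear cells (PBMC) were isolated. Each portion gave 1 scRNA-seq and 1 scATAC-seq library, so the treatments have no replicates and nothing was tested between them. How long the portion without LPS was incubated is not given in the sources used here, so LPS and incubation cannot be told apart in a ratio to no LPS.

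IL-1α (IL1A) and IL-1β (IL1B) are agonists that bind the same receptor and start inflammatory signalling through the adaptor MYD88 and the IRAK kinases. IL1RN encodes the receptor antagonist, which occupies that receptor without starting a signal. IL-18 (IL18) acts on its own receptor and is best known for driving interferon-γ release from T and NK cells. IL-1β and IL-18 are made as precursors that caspase-1 cleaves within the inflammasome, a complex built on sensors such as NLRP3 and the adaptor PYCARD. Lipopolysaccharide (LPS), a component of the wall of Gram-negative bacteria, is sensed through CD14 and TLR4, and monocytes are the classical blood source of IL-1β.

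Where 4 values follow each other they belong to the no LPS, 2 h, 4 h and 8 h libraries in that order, and 3 values belong to the LPS libraries. The libraries kept 7821, 9865, 7387 and 3411 cells with 16657841 to 47875879 UMIs, unique molecular identifiers that count captured RNA molecules. Any pair of libraries shared 8 to 24 barcodes, at most 0.363% of the smaller library. A CD14-positive cell had a UMI of the monocyte gene CD14, a CSF3R-positive cell had a UMI of the granulocyte gene CSF3R and none of CD14, and the remaining cells were called other cells. CD14-positive cells numbered 1233, 628, 294 and 440, or 15.8%, 6.37%, 3.98% and 12.9% of cells, and CSF3R-positive cells numbered 65, 141, 123 and 45. CD14 itself stood at 501, 145, 82.6 and 111 CPM (counts of UMIs scaled to a common total) over all cells, so fewer monocytes and less CD14 RNA in each cannot be told apart.

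The classes were checked against markers. The monocyte list includes CD14 and the granulocyte list CSF3R, whose presence was fixed by how the classes were chosen. In CD14-positive cells every one of the 10 monocyte markers had UMIs in each library, CD14 necessarily so. Their summed levels were 12329, 8498, 8213 and 8480 CPM, of which CD14 gave 1932, 1125, 1317 and 956 CPM. The same sum in CSF3R-positive cells was 36012, 5081, 2922 and 10453 CPM, higher than in CD14-positive cells without LPS and at 8 h, and most of it was S100A8 (12943, 1771, 476 and 4030 CPM) and S100A9 (21746, 2875, 1804 and 5532 CPM), calcium-binding proteins that granulocytes also make. CSF1R, the receptor of the monocyte growth factor, was at 109, 41.9, 36.9 and 46.4 CPM in CD14-positive cells. In CSF3R-positive cells it was at 0, 0, 2.49 and 0 CPM. There 6, 5, 3 and 5 of the monocyte markers were at 0, always including CD14 by definition. The granulocyte receptor CXCR1 was at 555, 277, 341 and 308 CPM in CSF3R-positive cells and at 5.205, 21.1, 93.6 and 15.5 CPM in CD14-positive cells. The granule genes CAMP and CATHL1 had at most 1 UMI in CSF3R-positive cells of any library, so these cells are called by the gene that chose them. Their summed granulocyte markers were at 25014, 2661, 1806 and 3802 CPM, of which CSF3R gave 860, 707, 770 and 543 CPM. Those of CD14-positive cells were at 7831, 4090, 4319 and 5666 CPM, higher in all 3 LPS libraries. S100A12 made up most of both sums without LPS, with 23349 and 7753 CPM. The summed lists thus did not separate the classes, while CSF1R and CXCR1 differed between them.

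The CD14-positive cells of the 8 h library stood apart. Of these 440 cells, 379 had only 1 or 2 CD14 UMIs, and the class medians were 6597, 9078, 6695 and 2230 UMIs per cell. The share with a T, B or NK cell gene was 39.7%, 42.99%, 53.1% and 67.05%. Values are therefore also given for cells with 3 or more CD14 UMIs, which numbered 826, 382, 162 and 61 and of which 26.2%, 30.1%, 40.7% and 32.8% carried such a gene.

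IL1A, the scarcer agonist, was low without LPS and highest at 2 h in both myeloid classes. Its level in CD14-positive cells was 174 (166 to 182), 1033 (1008 to 1059), 522 (495 to 551) and 187 (168 to 207) CPM, with exact Poisson intervals in parentheses. Intervals are given at 95% throughout and count only sampling of molecules. The ratios to no LPS were 5.94 (5.63 to 6.26), 3.002 (2.79 to 3.23) and 1.07 (0.956 to 1.203), so the 8 h interval included 1. Over cells with 3 or more CD14 UMIs the levels were 201, 1082, 496 and 346 CPM and the 8 h ratio was 1.73 (1.51 to 1.97).

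An IL1A UMI was found in 32.5%, 68.2%, 54.4% and 21.8% of CD14-positive cells. A positive cell held a mean of 4.34, 14.9, 8.23 and 3.77 IL1A UMIs, and the highest cells held 46, 116, 76 and 28. The 2 h library thus had both more positive cells and more UMIs in each. With every cell thinned to 1000 UMIs the shares were 11.2%, 42.4%, 27.2% and 11.6%, so the library with the highest share was the same.

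CSF3R-positive cells had 15, 906, 376 and 117 IL1A UMIs, a level of 91.4 (51.2 to 151), 2303 (2155 to 2458), 937 (844 to 1036) and 784 (649 to 940.2) CPM. Their ratios to no LPS were 25.2 (15.2 to 45.2), 10.2 (6.13 to 18.5) and 8.58 (4.99 to 15.8), resting on the small count without LPS. Relative to CD14-positive cells of the same library their IL1A level was 0.525 (0.293 to 0.869) times as high without LPS and 2.23 (2.08 to 2.39) times as high at 2 h. IL1A UMIs lay mostly in cells that also had IL1B. Of the IL1A-positive CD14-positive cells, 98.5%, 98.6%, 99.4% and 93.8% had an IL1B UMI.

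IL1B was the most abundant member in CD14-positive cells of every library. Its level there was 7836 (7781 to 7891), 18024 (17918 to 18131), 11897 (11763 to 12032) and 7682 (7559 to 7807) CPM, so the transcript was already plentiful without LPS. The ratios to no LPS were 2.30 (2.28 to 2.32), 1.52 (1.498 to 1.54) and 0.9804 (0.963 to 0.998). Over cells with 3 or more CD14 UMIs the levels were 9046, 21124, 15615 and 16974 CPM and the 8 h ratio was 1.88 (1.84 to 1.91). The direction of the 8 h difference therefore depended on which CD14-positive cells were counted.

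The share of CD14-positive cells with an IL1B UMI was 79.8%, 84.6%, 79.3% and 79.8%, and the libraries differed more in UMIs per cell. The median positive cell held 44, 203, 58 and 3 IL1B UMIs, and the highest cells held 479, 1073, 667 and 755. In cells with 3 or more CD14 UMIs the medians were 63.5, 289, 158 and 215. At 8 h most positive cells were thus low, while the highest cell exceeded that of the 4 h library. The 1% of all cells with the most IL1B UMIs held 28.0%, 38.3%, 64.1% and 62.4% of them.

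In CSF3R-positive cells IL1B was at 3609 (3324 to 3912), 6001 (5761 to 6248), 5089 (4871 to 5315) and 4043 (3727 to 4379) CPM, with ratios to no LPS of 1.66 (1.52 to 1.82), 1.41 (1.29 to 1.55) and 1.12 (0.999 to 1.26), all under 2-fold. Of these cells 78.5%, 90.8%, 96.7% and 95.6% had an IL1B UMI, and a positive cell held a median of 6, 11.5, 10 and 7 UMIs. Their median depth was 1183, 1542, 1724 and 1940 UMIs per cell.

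**Figure D1:**
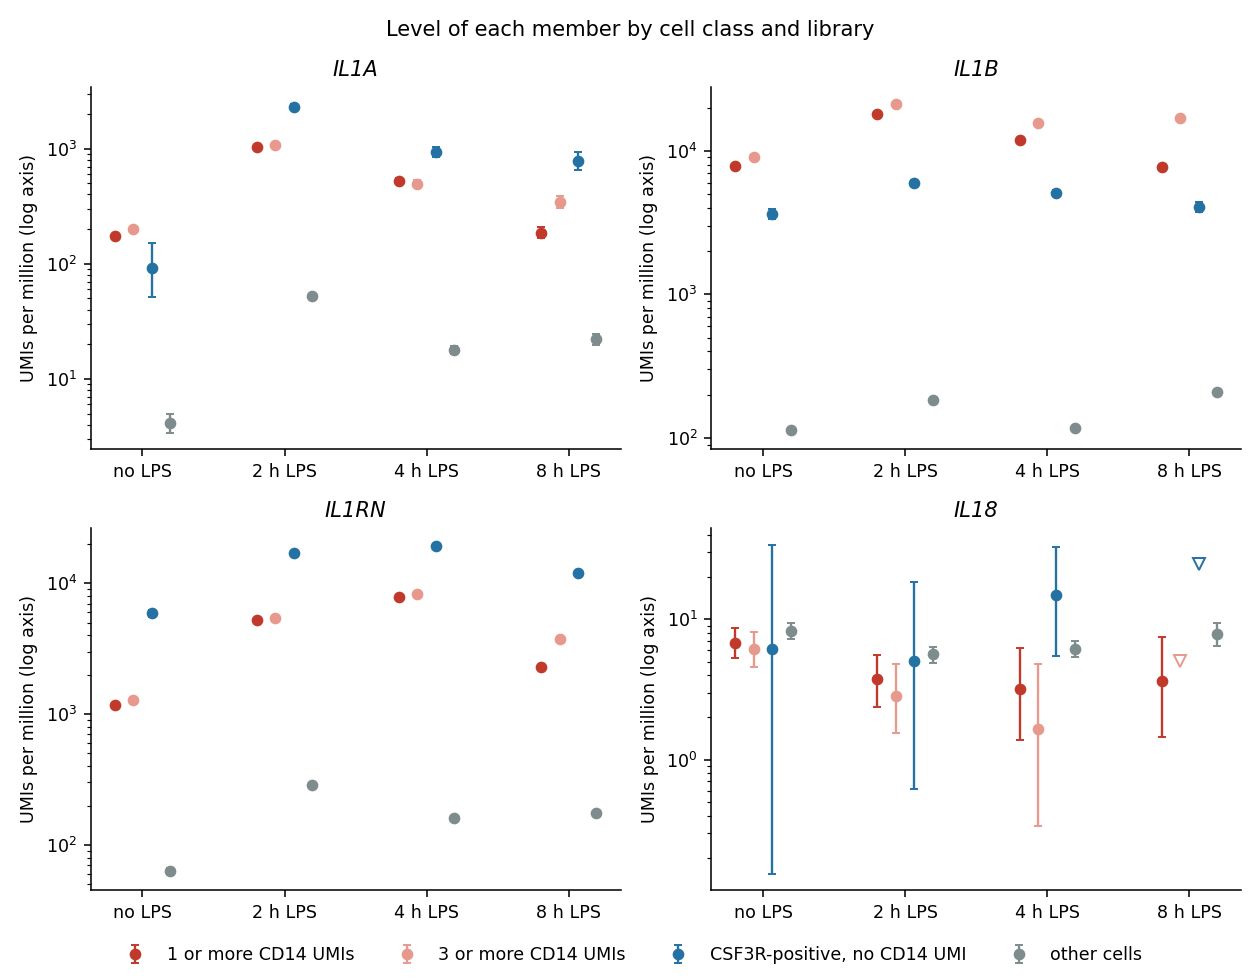
Level of IL1A, IL1B, IL1RN and IL18 (CPM, log axis) in each scRNA-seq library, for cells with 1 or more CD14 UMIs, cells with 3 or more, CSF3R-positive cells without CD14, and other cells. Points are summed levels, bars are exact 95% Poisson intervals, and open triangles give the upper limit where no UMI was counted. In CD14-positive cells IL1A and IL1B are highest at 2 h and IL1RN at 4 h, and CSF3R-positive cells lie above them for IL1RN.

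IL1RN, the antagonist, was highest at 4 h in both myeloid classes. Its level in CD14-positive cells was 1178 (1157 to 1199), 5244 (5187 to 5301), 7806 (7697 to 7916) and 2303 (2236 to 2372) CPM, and the ratios to no LPS were 4.45 (4.36 to 4.55), 6.63 (6.48 to 6.78) and 1.96 (1.89 to 2.02). From 2 h to 4 h IL1RN was higher by a factor of 1.49 (1.46 to 1.52), while IL1B was lower by a factor of 1.52 (1.496 to 1.53) and IL1A by 1.98 (1.86 to 2.10). The IL1RN factor was smaller in narrower classes, 1.13 (1.103 to 1.16) in CD14-positive cells without CSF3R and 1.03 (0.994 to 1.07) in those with a CSF1R UMI. Cells with CSF3R were 14.01% of the CD14-positive class at 2 h and 27.6% at 4 h, where they held 9888 of its 19676 IL1RN UMIs. Without the upper limit on genes per cell the class was at 3876 CPM at 2 h and 4310 CPM at 4 h. Over cells with 3 or more CD14 UMIs the IL1RN levels were 1282, 5379, 8324 and 3737 CPM, and the 8 h ratio was 2.91 (2.79 to 3.04). IL1RN was found in 65.8%, 82.5%, 78.2% and 60.9% of CD14-positive cells, with medians of 6, 49.5, 72.5 and 2 UMIs in a positive cell.

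CSF3R-positive cells had the highest IL1RN level of the 3 classes in every library. They stood at 5907 (5541 to 6291), 17026 (16621 to 17439), 19269 (18842 to 19703) and 11922 (11374 to 12489) CPM, with ratios to no LPS of 2.88 (2.69 to 3.09), 3.26 (3.05 to 3.49) and 2.02 (1.87 to 2.18). These few cells held 6.67%, 13.2%, 23.2% and 20.3% of the IL1RN UMIs of their libraries, and CD14-positive cells held 81.0%, 63.6%, 58.9% and 50.8%. For IL1B the CD14-positive class held 95.4%, 91.8%, 82.4% and 80.3%.

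**Figure D2:**
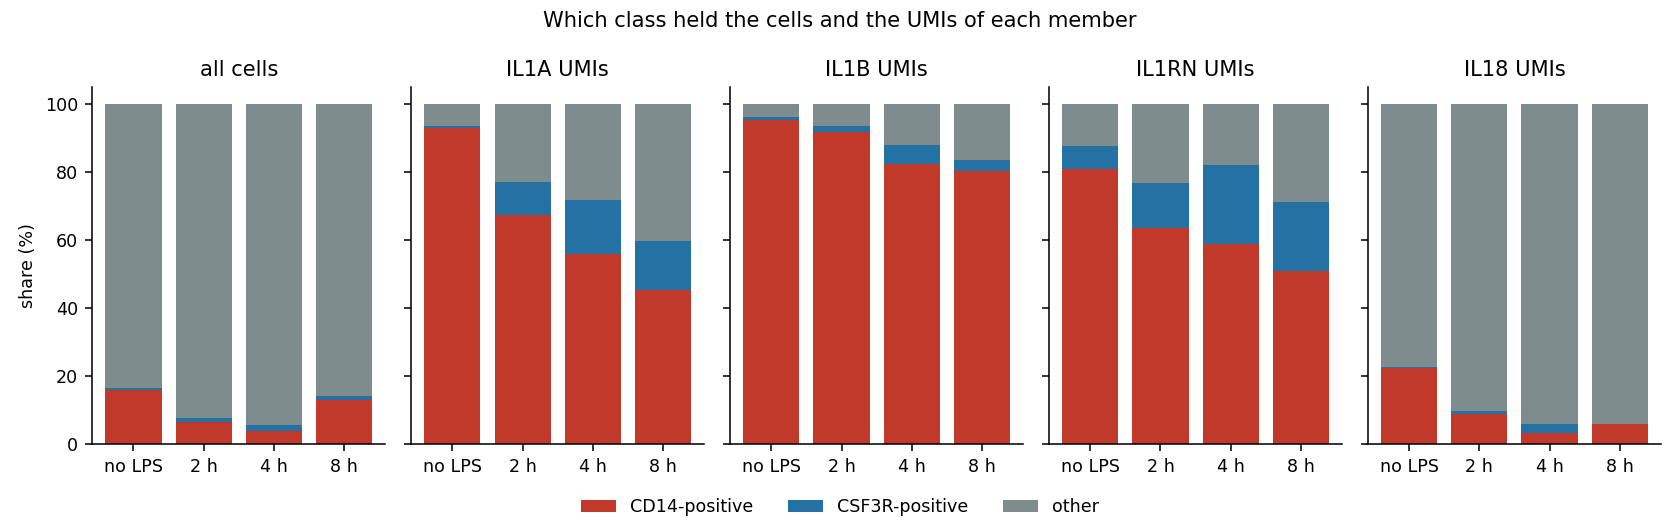
Percent of cells, and of the UMIs of each member, in CD14-positive, CSF3R-positive and other cells of each library. CD14-positive cells are a minority of cells and hold most IL1B UMIs, while other cells are most of the cells and hold most IL18 UMIs.

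Antagonist and agonist were set side by side as the ratio of IL1RN to IL1B UMIs, which compares cells and libraries because the transcripts need not be captured equally well. In CD14-positive cells it was 0.1503 (0.147 to 0.153), 0.291 (0.287 to 0.295), 0.656 (0.644 to 0.668) and 0.2998 (0.2899 to 0.3101). Over cells with 3 or more CD14 UMIs it was 0.142, 0.255, 0.533 and 0.2202. In CSF3R-positive cells it was 1.64 (1.48 to 1.82), 2.84 (2.71 to 2.97), 3.79 (3.61 to 3.98) and 2.95 (2.69 to 3.24), so IL1RN UMIs outnumbered IL1B UMIs in every library.

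Single cells showed the same contrast. Among CSF3R-positive cells with UMIs of both genes, IL1RN exceeded IL1B in 26 of 47, 115 of 128, 111 of 118 and 32 of 39 cells. In CD14-positive cells without CSF3R the shares were 5.43%, 16.1%, 27.5% and 17.04%. Cells with UMIs of both CD14 and CSF3R, 65, 88, 81 and 26 in number, lay between at 22.6%, 63.95%, 80% and 41.7%. With the CSF3R-carrying cells left out, the IL1RN to IL1B ratio of CD14-positive cells was 0.1403, 0.244, 0.411 and 0.277, so 4 h remained the highest library.

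**Figure D3:**
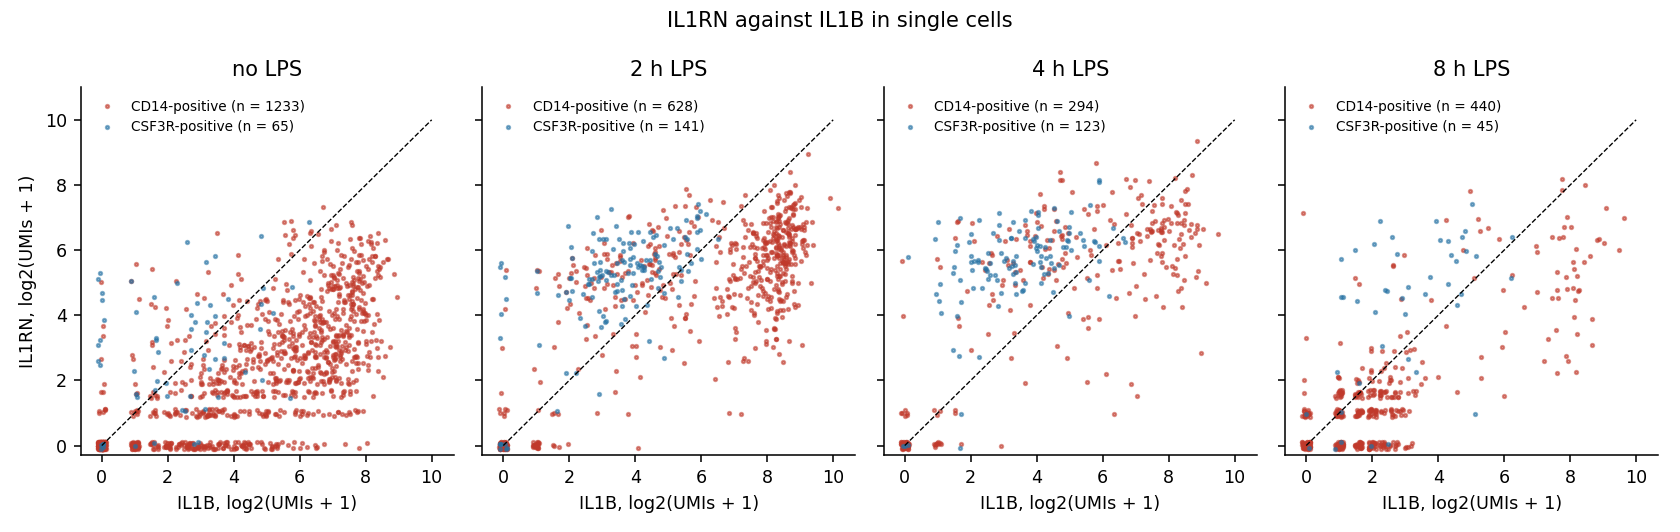
IL1RN against IL1B, both as log2(UMIs + 1), in each CD14-positive and CSF3R-positive cell of the 4 libraries, with points shifted slightly at random and a dashed line where both counts are equal. Without LPS most CD14-positive cells lie below the line, and after LPS most CSF3R-positive cells lie above it.

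Other cells gave low levels of the 3 myeloid members. IL1B was found in 13.9%, 19.9%, 9.73% and 33.3% of them, and the median positive cell held 1 UMI in every library. Here and below, cells with a CD3 gene, which marks T cells, are other cells without a B cell gene, and the reverse. Other cells with both, 546, 635, 436 and 335 in number, were in neither group. Their IL1B shares were 9.71%, 20.2%, 9.40% and 42.1%. Cells with a CD3 gene had shares of 11.6%, 17.2%, 7.81% and 26.4% at median depths of 4056, 4060, 4745 and 5226 UMIs. Cells with a B cell gene had 13.02%, 18.6%, 8.897% and 31.5% at 3711, 4132, 4881 and 5289 UMIs. Cells with the NK cell gene NCR1 and no CD3 or B cell gene numbered 56, 89, 86 and 35. They had 12.5%, 25.8%, 4.65% and 11.4% at 4582, 4604, 5392 and 6962 UMIs. Free RNA in droplets can give such UMIs, and its part was not tested. Since lymphocytes are not known as a main source of IL1B, single UMIs in these cells were not read as expression.

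A few other cells held many UMIs. At 2 h, 239 of 9096 other cells had 10 or more IL1RN UMIs and held 91.5% of the IL1RN UMIs of that class. At 4 h there were 102 such cells with 90.1%. Their median depths were 1354 and 1470 UMIs, and 27.6% and 31.4% carried a lymphocyte gene, against 89.4% and 91.1% of all other cells. The other cells without a lymphocyte gene, 731, 965, 619 and 412 in number, stood at 504, 2628, 1602 and 1559 CPM of IL1RN.

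**Figure D4:**
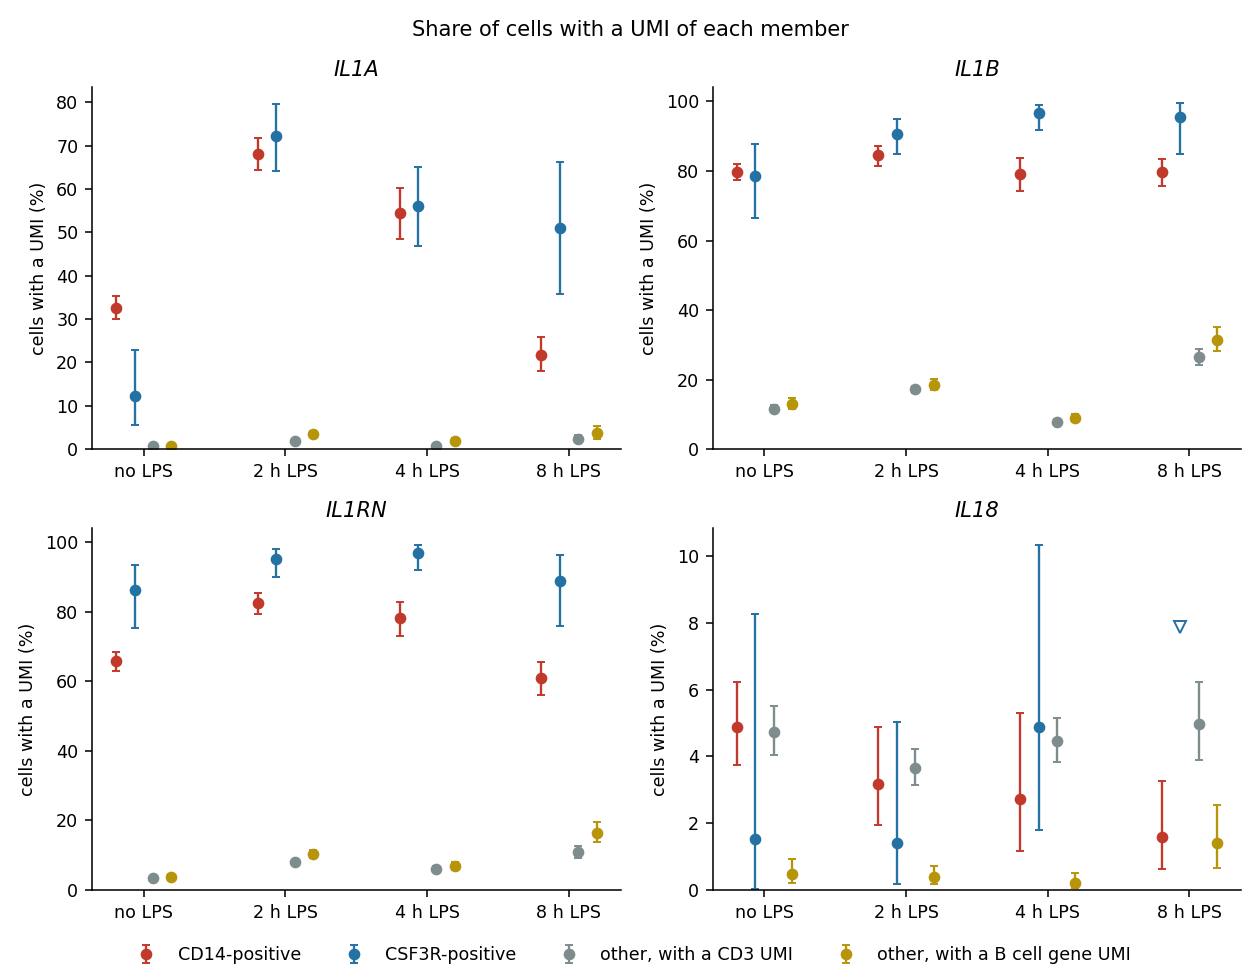
Percent of cells with at least 1 UMI of each member (exact 95% binomial intervals) in CD14-positive cells, CSF3R-positive cells and other cells. The other cells shown had a CD3 gene or a B cell gene but not both. An open triangle gives the upper limit where no cell was positive. IL1A, IL1B and IL1RN are found in a larger share of the myeloid classes than of the other cells shown, and IL18 is found more often in cells with a CD3 gene than in cells with a B cell gene.

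IL18 did not follow the other members. Over all cells it had 303, 257, 242 and 121 UMIs, or 7.87 (7.01 to 8.81), 5.37 (4.73 to 6.07), 6.03 (5.29 to 6.83) and 7.26 (6.03 to 8.68) CPM, and no cell held more than 3. The level was lower than without LPS by factors of 1.47 (1.24 to 1.74) at 2 h and 1.31 (1.099 to 1.55) at 4 h. In CD14-positive cells it had 68, 23, 8 and 7 UMIs, or 6.81, 3.73, 3.17 and 3.61 CPM, and the 2 h level was lower by a factor of 1.82 (1.12 to 3.07). The 4 h and 8 h levels were also below that without LPS, on 8 and 7 UMIs. CSF3R-positive cells had 1, 2, 6 and 0 IL18 UMIs, too few for a ratio.

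Most IL18 UMIs lay in cells with a CD3 gene, which held 57.4%, 70.8%, 76.03% and 65.3% of them. Other cells with both a CD3 and a B cell gene held 8.25%, 8.17%, 8.68% and 14.0%. The cells with a CD3 gene and no B cell gene were 42.6%, 49.3%, 51.7% and 41.9% of all cells. Their IL18 level was 12.03 (10.3 to 13.95), 8.56 (7.36 to 9.899), 9.53 (8.21 to 11.01) and 10.4 (8.22 to 12.9) CPM, and cells with a B cell gene were at 1.19, 0.778, 0.414 and 2.92 CPM. The share of positive cells was 4.74%, 3.66%, 4.45% and 4.97% with a CD3 gene and 0.484%, 0.394%, 0.199% and 1.399% with a B cell gene, and the exact intervals of both groups were apart in each library. In CD14-positive cells it was 4.87%, 3.18%, 2.72% and 1.59%, so without LPS it was close to that with a CD3 gene. Thinned to 1000 UMIs, the shares were 1.33%, 1.02%, 0.806% and 0.435% with a CD3 gene and 0.113%, 0.120%, 0% and 0.151% with a B cell gene. These lie near single UMIs, the 8 h intervals overlapped, and no order of libraries is read from them. IL1B went the other way, at 38.5, 56.3, 20.9 and 92.9 CPM with a CD3 gene and 82.4, 98.7, 60.6 and 152 CPM with a B cell gene.

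Members past 2-fold were counted against all genes with at least 20 UMIs over both libraries, a gene being past 2-fold where the log2 ratio of CPM + 1 was at least 1 or at most -1. In sums over all cells, fewer cells of a type and less RNA per cell cannot be told apart. At 2 h, 2 of 4 members were higher, IL1A (4.06-fold) and IL1RN (2.81-fold), against 0.938% of 12150 genes, and 0 were lower, against 2.46%. At 4 h, IL1RN was higher (2.203-fold), against 1.28% of 12060 genes, and IL1B was lower by a factor of 2.35 (2.32 to 2.38), against 4.26%. Without the upper limit on genes the log2 ratio of IL1B was -0.57 in place of -1.23, under 2-fold, and with every deposited barcode it was -0.56. The mean over cells scaled to 10000 UMIs also left it under 2-fold (-0.86). At 8 h, 0 members were past 2-fold, against 0.492% of 11778 genes higher and 2.92% lower. In each setting run for a class, IL1B was lower in the whole 4 h library and higher within its CD14-positive cells, by sizes that depended on the setting. CD14-positive cells were 3.98% of kept cells at 4 h against 15.8% without LPS.

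In CD14-positive cells 3 of 4 members, IL1A, IL1B and IL1RN, were at least 2-fold higher at 2 h, against 3.2% of 9384 genes, and 0 were lower, against 7.9%. At 4 h, IL1A and IL1RN were higher, against 5.93% of 9173 genes, and 0 were lower, against 6.02%. IL18, at 6.81 CPM without LPS and 3.17 CPM at 4 h, was past 2-fold lower by plain CPM, but not with the pseudocount of 1 CPM. At 8 h, 0 were higher, against 17.8% of 9216 genes, and 0 were lower, against 3.93%. IL1RN lay just under the line there, with a log2 ratio of 0.97, and at 1.54 over cells with 3 or more CD14 UMIs. The median log2 ratio of all genes in this class was -0.31, 0.03 and 0.39. Read against that median, the 8 h members stood lower than their ratios alone show. Over cells with 3 or more CD14 UMIs the 8 h median of the same genes was -0.08, or 0.18 without the upper limit on genes. The shift thus depended on which cells were counted.

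In CSF3R-positive cells 3 of the 4 members had at least 20 UMIs in each comparison. IL1A and IL1RN were at least 2-fold higher each time, against 7.54% of 2572 genes at 2 h, 11.6% of 2832 at 4 h and 8.21% of 1767 at 8 h. None of the 3 was at least 2-fold lower, against 15.4%, 10.5% and 15.4% of genes. IL1RN passed the line narrowly at 8 h, with a log2 ratio of 1.01, and stood at 0.04 without the upper limit on genes.

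The upper limit of 3000 genes per cell removed many IL-1 UMIs. Barcodes above it held 46.5%, 46.2%, 63.8% and 78.5% of the deposited IL1B UMIs and 46.96%, 32.01%, 44.4% and 61.6% of those of IL1RN, against 33.6%, 24.8%, 28.8% and 46.02% of the UMIs of all genes. Of the CD14-positive barcodes above it, 421, 222, 201 and 203 in number, 84.1%, 90.99%, 95.5% and 88.2% carried a lymphocyte gene. Their IL1B level was 4906, 12541, 7991 and 7404 CPM, below that of the kept cells in every library. No doublet caller was run, and the part of doublets was not tested.

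Other pathway genes came from a list of 34 ligands, receptors, inflammasome and signalling genes, of which 32 were matched by symbol and CASP1 and AIM2 were not. In CD14-positive cells 24 had at least 20 UMIs. Of these 24, 4, 4 and 3 were at least 2-fold higher, against 3.2%, 5.93% and 17.8% of all genes. At least 2-fold lower were 2, 2 and 2, against 7.9%, 6.02% and 3.93%. The share higher at 8 h was thus below that of all genes, and the share lower at 2 h was near it. With edgeR TMM factors 7 were higher at 2 h and 6 were lower at 8 h. The share of all genes was not counted with these factors, so these counts are not read against it. The factors moved the median of all genes to -0.05 at 2 h and -0.02 at 8 h. Without them the median log2 ratios of the pathway genes were -0.12, 0.13 and -0.01, against -0.31, 0.03 and 0.39 over all genes.

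Among inflammasome genes in CD14-positive cells, NLRP3, a sensor of cell damage and bacterial signals, was at 59.9, 288, 219 and 77.4 CPM. NLRC4, a sensor of bacterial secretion proteins, was at 12.7, 33.4, 33.7 and 12.9 CPM. Both sensors were past 2-fold higher at 2 h and 4 h, but without the upper limit on genes NLRC4 at 4 h had a log2 ratio of 0.90. PYCARD, the adaptor that joins sensors to caspase-1, was at 386, 81.0, 76.2 and 69.2 CPM, with log2 ratios of -2.24, -2.33 and -2.46, and it was past 2-fold lower over all cells too (-2.69, -3.41 and -2.81). GSDMD, the pore-forming protein through which IL-1β leaves cells, had 44, 26, 17 and 26 UMIs and a log2 ratio of 1.42 at 8 h, against -0.51 over cells with 3 or more CD14 UMIs.

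The kinase IRAK2, which carries the receptor signal, was at 56.95, 133, 138 and 71.7 CPM in CD14-positive cells, and IRAK3, which restrains it, at 16.3, 33.9, 28.2 and 25.3 CPM. The decoy receptor IL1R2, which binds IL-1 without signalling, was at 166, 97.1, 52.8 and 97.03 CPM. IL18BP, the secreted inhibitor of IL-18, was at 905, 1016, 970.4 and 428 CPM, with log2 ratios of 0.17, 0.10 and -1.08. Without the upper limit on genes the first 2 of these were -0.35 and -0.59, the opposite sign. The ligand IL36A was at 18.9, 28.2, 48.8 and 18.1 CPM. At 8 h the inhibitory ligand IL37 and receptor SIGIRR had log2 ratios of 1.31 and 1.46, against 2.35 and 0.28 over cells with 3 or more CD14 UMIs. TAB1, a partner of the kinase MAP3K7, had 48, 5, 12 and 9 UMIs.

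In CSF3R-positive cells NLRP3 had 2, 373, 153 and 76 UMIs, or 12.2, 948, 381 and 509.6 CPM. The count without LPS allows only a wide interval for the 2 h log2 ratio, 4.42 to 9.33. IRAK2 had 6, 82, 90 and 31 UMIs, and IL1R2 had 28, 34, 27 and 10. IL1R2 was past 2-fold lower at 4 h and 8 h.

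Likeness to other genes was measured as the Pearson correlation of log2(CPM + 1) over 12 points, the 3 classes in the 4 libraries, among 10007 genes. The points share libraries and the step between myeloid and other cells, so the values are descriptions. The 5 genes most like IL1A were SGK1, IRAK2, PVR, BCL2A1 and GRO1 (0.966 to 0.977). For IL1B they were SLC2A6, IL10, NINJ1, HIF1A and XDH (0.983 to 0.988). For IL1RN they were NLRP12, CXCL8, MEFV, ICAM1 and PPP1R15A (0.988 to 0.995). For IL18 they were SHLD2, VCPKMT, CHERP, WDR37 and SNRNP35 (0.920 to 0.9302), where points rested on as few as 0 IL18 UMIs. Between members the values were 0.938 for IL1A with IL1RN, 0.861 for IL1A with IL1B and 0.866 for IL1B with IL1RN.

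In the RefSeq gene table of the assembly ARS-UCD2.0, used only for neighbours because the counts were made on ARS-UCD1.2, IL1A, IL1B and IL1RN share a chromosome that does not hold IL18. Between IL1B and IL1RN lie 6 protein-coding genes, all of the IL-1 family. Over all cells IL36A had 194, 180, 137 and 43 UMIs, IL37 had 79, 36, 21 and 44 and IL36G had 8, 5, 3 and 3. IL36B, IL36RN and IL1F10 had 0 in every library. IL36A was the most abundant of these genes without LPS and at 2 h and 4 h.

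The scATAC-seq assay cuts open chromatin with a transposase and counts cuts or fragments by gene in each nucleus. The members are not listed in the no LPS table, which holds 11658 genes, so no ratio to no LPS was formed. All 4 are listed at 2 h and 4 h, and at 8 h IL1A is listed with 26 counts and the others are not. A gene that is not listed was not read as 0. From 2 h to 4 h, IL1B had 303 counts (10.02 CPM, 8.92 to 11.2) and 53 counts (1.97 CPM, 1.48 to 2.58), lower by a factor of 5.07 (3.78 to 6.93). IL1RN had 901 counts (29.8 CPM, 27.9 to 31.8) and 87 counts (3.24 CPM, 2.596 to 3.999), lower by 9.19 (7.37 to 11.6). Both were far below their 2 h values. IL1A had 271 counts (8.96 CPM, 7.92 to 10.1) and 215 counts (8.01 CPM, 6.98 to 9.16), a factor of 1.12 (0.932 to 1.34), and IL18 had 336 counts (11.1 CPM, 9.95 to 12.4) and 252 counts (9.39 CPM, 8.27 to 10.6), a factor of 1.18 (1.002 to 1.398). CD14, for comparison, differed by a factor of 1.37 (1.21 to 1.55). Thus 2 of 4 members were at least 2-fold lower at 4 h, against 1.46% of 13133 genes, and 0 were higher, against 0.457%.

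Counts in a nucleus were mostly even, 93.8% of values above 0 at 2 h and 91.8% at 4 h, over all genes. For IL1B the even share was 68.4% and 32.4%, and for IL1RN 70.1% and 47.7%, so the values of both at 4 h were mostly odd. Where counts come in pairs they are not independent, and the intervals on counts are then too narrow. The share of barcodes with a count was 3.26% (2.74% to 3.84%) and 1.15% (0.808% to 1.58%) for IL1B and 5.37% (4.705% to 6.097%) and 1.36% (0.991% to 1.82%) for IL1RN, at 2 h and 4 h. For IL1A it was 3.04% and 3.31%, for IL18 3.95% and 3.68% and for CD14 6.47% and 6.004%. The lower IL1B and IL1RN values at 4 h thus held on both scales. Among barcodes with a CD14 count, 15.2% had an IL1RN count at 2 h and 4.12% (8 of 194) at 4 h. Among barcodes without a CD14 count the shares were 4.69% and 1.19%, also lower at 4 h. The barcodes with a CD14 count were deeper, with medians of 10021 and 14012 counts against 4941.5 and 4804. A higher share beside CD14 is therefore not read from these values. The scATAC-seq CPM above cover all barcodes. In the scRNA-seq libraries of the same portions, IL1RN over all cells was at 1061 CPM at 2 h and 831 CPM at 4 h. IL1B over all cells was at 2527 and 906 CPM. Within CD14-positive cells the IL1RN level at 4 h was 1.49-fold that of 2 h, and 1.13-fold without the cells that carried CSF3R.

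**Figure D5:**
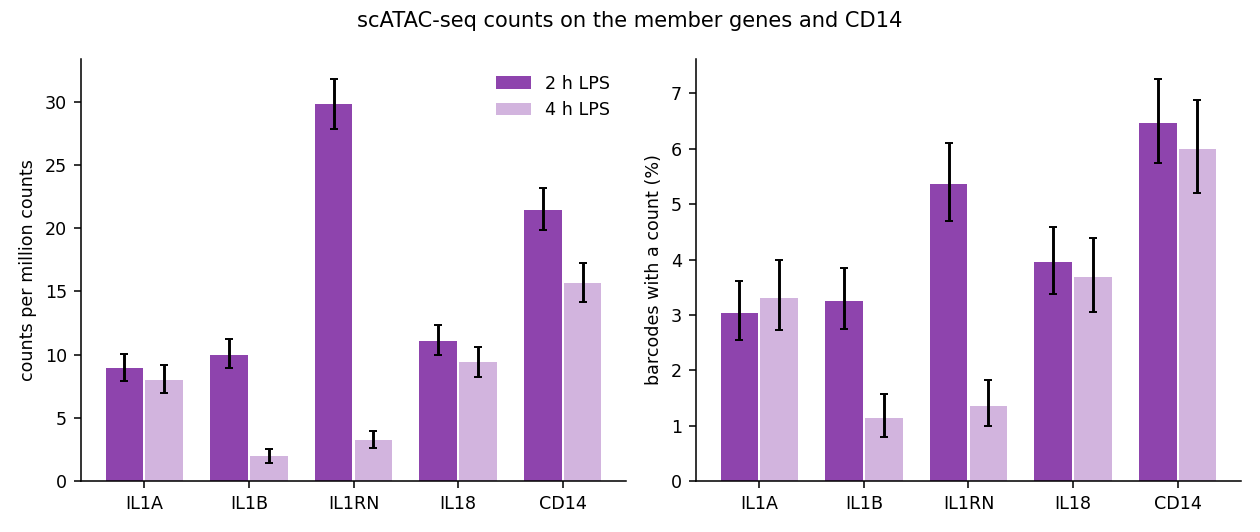
scATAC-seq counts on the 4 members and CD14 at 2 h and 4 h, as CPM (left, exact 95% Poisson intervals) and as the percent of barcodes with a count (right, exact 95% binomial intervals). IL1B and IL1RN are lower at 4 h on both scales.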

How the data were processed

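The authors processed the reads with Cell Ranger on ARS-UCD1.2. The deposited scRNA-seq tables hold raw UMI counts by gene and barcode. The deposited scATAC-seq tables hold raw counts by gene and barcode, and the rule that assigned them to genes is not given in the sources used here. Barcodes were kept as cells from 200 to 3000 genes, from 200 UMIs and below 20% mitochondrial UMIs, and no doublet caller was run. For each class, UMIs were added up over its cells and expressed as CPM. The 2-fold line used a pseudocount of 1 CPM and genes with 20 UMIs or more. With 1 library per treatment and assay, no test was made. Poisson, Clopper-Pearson and conditional ratio intervals at 95% came from scipy 1.17.1 in Python 3.11.15. The 2-fold calls and ratio intervals were tested on simulated gene sums with Poisson noise only. That simulation cannot show how they hold under variation between cells or libraries. Factors of edgeR 4.0.16 (TMM) and DESeq2 1.42.0 in R 4.3.3 served as alternative scaling. Shares were repeated with cells thinned to 1000 UMIs. A lymphocyte gene was CD3D, CD3E, CD3G, CD79A, CD79B, MS4A1 or NCR1. Named genes were the members, class markers, pathway genes past 2-fold in CD14-positive cells and the 5 genes most like each member. Pathway values in CSF3R-positive cells and genes of cells with IL18 were named after their values were seen. Members and lists were chosen with earlier results of these data known. The authors' scRNA-seq and scATAC-seq libraries are different cells of the same portions.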

Additional observations from a re-analysis of the deposited data

Results flagged for a closer look

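The direction of IL1B depended on which cells were counted, and the difference was not tested because each treatment had 1 library. At 4 h its CPM ratio to no LPS was 0.425 over all cells (log2 ratio -0.57 without the upper limit on genes). It was 1.52 in CD14-positive cells and 1.41 in CSF3R-positive cells. Other cells stood at 117.2 CPM at 4 h and 112.8 CPM without LPS, with overlapping intervals. The 4 h contrast thus lay between the whole library and its classes. Within other cells, those with a CD3 gene were lower at 4 h, at 20.9 CPM against 38.5 CPM. Those without a lymphocyte gene were higher, at 1270 CPM against 841 CPM. At 8 h the IL1B ratio to no LPS was 0.9804 in CD14-positive cells, 1.88 in those with 3 or more CD14 UMIs and 1.86 in other cells. In the 8 h library 26.4% of other cells with a CD3 gene and no B cell gene had an IL1B UMI, against 11.6% without LPS. The part of free RNA in the value of other cells was not tested.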

How the results depend on the processing

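No member past 2-fold turned its direction, and 130 of 156 counts of members and 18 of 18 scATAC values stayed. By contrast 14 of 16 IL1RN to IL1B ratios, 63 of 128 shares and 6 of 18 background counts moved. Leaving out a replicate was not possible with 1 library per treatment. Among the scATAC settings, a minimum of 500 counts per barcode left all member levels unchanged, so its values could not move. Over all cells at 4 h, members higher went from 1 to 2 and lower from 1 to 0 with the mean over cells scaled to 10000 UMIs, and lower went to 0 without the gene limit and with every deposited barcode. At 8 h, higher went from 0 to 1 with that mean and lower from 0 to 1 with TMM or DESeq2 factors. In CD14-positive cells at 4 h, higher went from 2 to 1 with a CSF1R UMI required or with 3 or more CD14 UMIs and no gene limit. Lower went from 0 to 1, always IL18, with 3 or more CD14 UMIs, no lymphocyte gene, CSF1R, no CSF3R or DESeq2 factors. At 8 h, higher went from 0 to 1 with at least 1500 UMIs per cell, 3 or more CD14 UMIs, no lymphocyte gene or CSF1R, and lower from 0 to 1 with 3 or more CD14 UMIs with or without the gene limit, CSF1R, TMM or DESeq2. In CSF3R-positive cells at 8 h, higher went from 2 to 1 without the gene limit, with every barcode or without a lymphocyte gene. The IL1RN to IL1B ratio of CD14-positive cells, from no LPS to 8 h, was 0.165, 0.2604, 0.482 and 0.219 without the gene limit and 0.142, 0.255, 0.533 and 0.2202 with 3 or more CD14 UMIs. Without a lymphocyte gene it was 0.144 for no LPS, 0.558 for 4 h and 0.283 for 8 h, and as a median over cells 0.139, 0.783 and 0.500. Pathway genes higher in CD14-positive cells at 2 h went from 4 to 7 with TMM or DESeq2, at 4 h from 4 to 1 without the gene limit (NLRC4, IRAK2 and IL36A were lost), and at 8 h from 3 to 1 without the gene limit and to 0 with DESeq2. Those lower at 8 h went from 2 to 1 with 3 or more CD14 UMIs, 6 with TMM and 7 with DESeq2. The share of all genes past 2-fold was not counted in these settings, for members or pathway genes. The settings without CSF3R, with 3 or more CD14 UMIs and no gene limit, and those for CSF3R-positive cells and the pathway were chosen after seeing the data. The cause of these moves was not tested.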

Other observations

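Cells with a CD3 gene and an IL18 UMI, 158, 178, 170 and 71 in number from no LPS to 8 h, were set beside those without one, a comparison chosen after the values were seen and not tested. The 5135 genes compared were ranked by their smallest log2 ratio over the 4 libraries. The genes with a symbol that ranked first were S100A4, CXCR6, NKG7, S100A11, LGALS1, ANXA6, S100A10 and PTMS. Their being higher in all 4 libraries follows from this ranking. At 8 h CXCR6 had 25 UMIs and NKG7 had 19 UMIs in the cells with IL18. S100A4, a calcium-binding protein, was at 733, 829, 826 and 553 CPM with IL18 and 395, 327, 262 and 234 CPM without. CXCR6, a chemokine receptor of effector T cells, was at 124, 95.5, 129.7 and 54.9 CPM with IL18 and 52.7, 38.2, 49.9 and 29.2 CPM without. NKG7, a gene of cytotoxic granules, was at 126, 70.4, 68.03 and 41.7 CPM with IL18 and 46.8, 32.04, 30.4 and 22.5 CPM without. The cells with IL18 were also deeper, with medians of 4810, 5009, 5495 and 5985 UMIs against 4032, 4033, 4715 and 5202, and the part of depth was not tested.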
